A study of Arabidopsis thaliana with 12 samples.

Results

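Cytochrome P450 genes were measured in leaves of Arabidopsis thaliana in wild type and in the cs26 mutant, under long and short days. A probe set entered when it named 1 gene whose symbol is CYP, a family number of 2 or 3 digits and a subfamily letter. Cyclophilins, which share the CYP prefix, and CYTC were kept out, and so was CYP718, whose symbol carries no subfamily letter. The rule gave 23 genes, each with a single probe set, out of 13356 genes that have a probe set naming them alone. Of these, 19 belong to the CYP71B subfamily, and the other 4 are CYP51G2, CYP78A9, CYP79A2 and CYP84A4. The gene table used for names holds 236 P450 symbols of this form, so most of the superfamily is not analysed here, and 2 further probe sets that name a P450 together with another gene were left out.

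Wild type was the accession Col-0 and the mutant was cs26 (SALK_034133), a line of the SALK insertion collection. The series title gives the product of the mutated gene as S-sulfocysteine synthase, with a role in the chloroplast. Long-day plants had 16 h of light and 8 h of dark and were 3 weeks old, and short-day plants had 8 h of light and 16 h of dark and were 5 weeks old, so day length and age cannot be told apart. All plants grew in soil supplied with Hoagland medium with 20 °C by day and 18 °C by night. Each of the 4 groups has 3 arrays, called biological replicates by the submitters, and whole leaves were used. The study asked which transcripts differ between mutant and wild type within each photoperiod. Values are RMA log2 values from Affymetrix ATH1 arrays, where 1 unit is a 2-fold change, and a level can be compared between arrays but not between probe sets.

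P450s are haem enzymes that insert an oxygen atom into small molecules, and most plant forms sit on the endoplasmic reticulum and take electrons from a P450 reductase. In leaves they are known for making and breaking down hormones, phenylpropanoids, glucosinolates, terpenes and cuticle lipids, and for defence compounds such as camalexin. The CYP71 clan is the large plant-specific branch, and many of its CYP71B genes lie side by side in the genome. Few CYP71B enzymes have a settled substrate. CYP71B6 oxidises indole-3-acetonitrile, a product of tryptophan, and CYP71B31 oxidises linalool in flowers. CYP78A9 promotes fruit and seed growth, CYP79A2 turns phenylalanine into the aldoxime of benzyl glucosinolate, and CYP84A4 belongs to arabidopyrone synthesis. CYP51G2 is a relative of the sterol 14-demethylase gene. The gene table lists CYP51G2 and CYP71B27 as transcribed pseudogenes.

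Of the 23 genes, 13 had a mean over the 12 arrays at or above the median of all probe set means (5.52), and 10 lay below it. RMA compresses differences near the background, so the 10 dim genes could show little change. CYP71B36, CYP84A4 and CYP71B29 lie above the line only through their highest group (the means of the other 3 groups were 5.45, 5.44 and 5.52), so no share of called genes is given over the 13. All 23 probe set identifiers are of the plain kind that the array's design gives to a single transcript. Over these genes the arrays differed in spread: the SD of the values around their group means was 0.206 on replicate 2 of cs26 in long days and 0.21 on replicate 2 of cs26 in short days. On the other 10 arrays it lay between 0.089 and 0.143. Among the 13 brighter genes, that replicate was the lowest of its group for 9 in long days and for 8 in short days. The 12 Bacillus subtilis control probe sets averaged 7.03 to 7.21 in long-day wild type and 6.47 to 6.71 in long-day cs26, without overlap. In short days they averaged 5.66 to 5.69 in wild type and 5.59 to 6.20 in cs26, which overlap. They thus differed most between the photoperiods, and the sign of the difference in mean between the genotypes turned (7.09 and 6.60 in long days, 5.68 and 5.92 in short days, wild type first). The part of these controls in the genotype, photoperiod and difference results was not tested. CS26 has no probe set naming it alone here, so the labels were not checked by its level. In leaf RNA, fewer cells of a type and less RNA per cell cannot be told apart.

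In long days the mutant had higher levels of CYP71B36, CYP71B23, CYP71B6 and CYP71B22 and lower levels of CYP71B34, CYP78A9, CYP71B35, CYP71B28 and CYP71B5. CYP71B36 changed by 3.38-fold and CYP71B23 by 3.19-fold, where the long-day wild-type level of CYP71B36 (4.72 ± 0.197, SD, n = 3) lies below the median of probe set means and near the dim genes, so its fold may be understated. That makes 4 genes higher and 5 lower among 23 (39.1% called, against 24.6% of all 22746 probe sets, of which 12.8% were higher and 11.8% lower). A gene is called at an adjusted p under 0.05 in limma. In short days, CYP71B26, CYP71B35 and CYP71B5 were higher in the mutant and CYP71B23 and CYP71B24 were lower. This was 3 higher and 2 lower (21.7% called, against 16.7% of all probe sets, 8.89% higher and 7.84% lower). At least 2-fold changes were called for 2 genes in long days (CYP71B36 and CYP71B23, against 5.74% of all probe sets) and for 1 in short days (CYP71B23, against 2.08%). Together 11 genes were called in at least 1 photoperiod (32.8% of all probe sets). The genes called between the genotypes were all among the 13 brighter ones. CYP71B36 is there only through long-day cs26, the group in which it was called higher. Its place among the brighter genes is thus partly set by that change. The median log2 difference of the 23 genes was 0.02 in long days and 0.04 in short days, where all probe sets had -0.01 and 0. The values of mutant and wild type did not overlap for 9 genes in long days (39.1%, against 38.2% of all probe sets) and for 10 in short days (43.5%, against 29.8%).

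**Figure D1:**
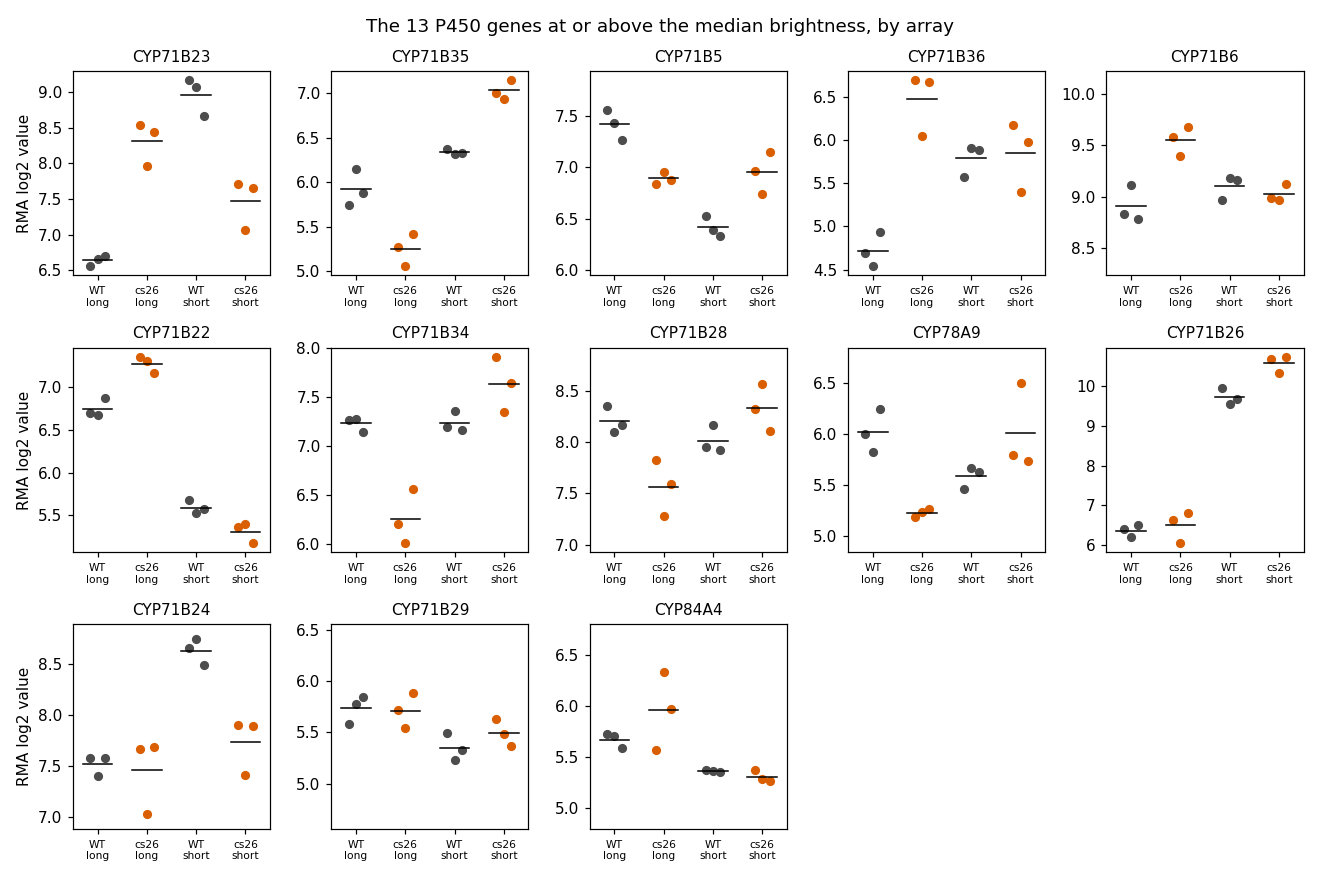
RMA log2 values (vertical axis) of the 13 brighter P450 genes on each of the 12 arrays, 1 panel a gene, with grey points for wild type, orange points for cs26 and a line for each group mean of 3 arrays; replicates 1 to 3 run from left to right within a group. CYP71B23 rises in long-day cs26 and falls in short-day cs26, CYP71B35 and CYP71B5 show the reverse, and CYP71B26 separates the photoperiods by more than the genotypes.

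CYP71B23, CYP71B35 and CYP71B5 were called in both photoperiods, each with opposite signs. None of the 23 genes was called with the same sign in both. The comparisons share no array, and 1544 of all 22746 probe sets (6.79%) were called with opposite signs, against 405 (1.78%) with the same sign. Calls in both, of either kind, made up 8.57% of all probe sets.

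CYP71B23 (AT3G26210) read 6.56, 6.66 and 6.70 on the long-day wild-type arrays and 8.54, 7.96 and 8.44 on the long-day cs26 arrays. In short days wild type read 9.17, 9.07 and 8.66 and cs26 read 7.71, 7.07 and 7.65. No values overlapped between the genotypes in either photoperiod, and the mutant lay between the wild-type levels of the photoperiods. The gene rose 3.19-fold in long-day cs26 (1.67 ± 0.191, log2, SE, n = 3 arrays per group, adjusted p = 2.73e-05 in limma). It fell 2.81-fold in short-day cs26 (-1.49 ± 0.191, adjusted p = 2.08e-04). The difference between these effects, -3.16 ± 0.27, was the largest among the 23 genes (adjusted p = 2.14e-06).

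CYP71B35 (AT3G26310) went the other way. In long days its values were 5.75, 6.15 and 5.88 in wild type and 5.27, 5.06 and 5.42 in cs26. In short days they were 6.37, 6.32 and 6.33 in wild type and 7.01, 6.94 and 7.15 in cs26. The genotypes did not overlap in either photoperiod, and short-day cs26 had the highest level of the 4 groups. The changes were similar in size, a fall of 1.60-fold in long days (-0.68 ± 0.115, adjusted p = 7.29e-04) and a rise of 1.62-fold in short days (0.69 ± 0.115, adjusted p = 0.0014). The difference of effects was 1.37 ± 0.163 (adjusted p = 4.27e-05).

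CYP71B5 (AT3G53280) showed the smallest of these changes. Its long-day values were 7.56, 7.43 and 7.27 in wild type and 6.84, 6.96 and 6.88 in cs26. Its short-day values were 6.53, 6.39 and 6.33 in wild type and 6.97, 6.74 and 7.15 in cs26. The wild-type groups lay at the top and the bottom of the range with both mutant groups between them, and the mutant groups overlapped each other. The fall in long days was 1.44-fold (-0.53 ± 0.111, adjusted p = 0.00334), the rise in short days 1.45-fold (0.54 ± 0.111, adjusted p = 0.0055), and the difference of effects 1.06 ± 0.157 (adjusted p = 2.53e-04).

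**Figure D2:**
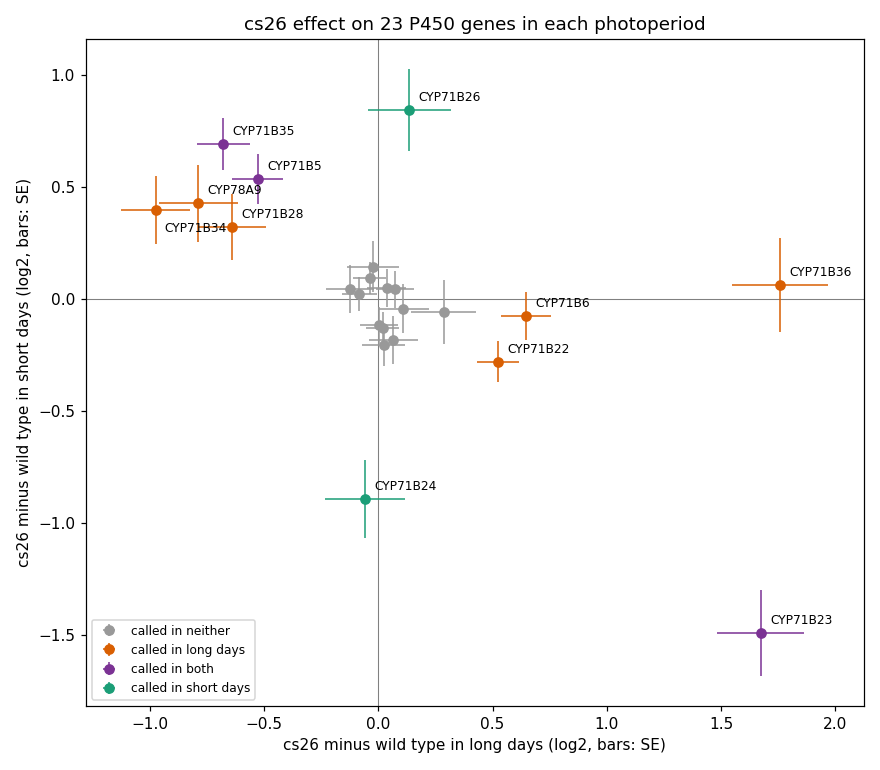
Each point is 1 of the 23 P450 genes, with the cs26 minus wild-type difference in long days (horizontal axis, log2) against that in short days (vertical axis, log2), bars showing the model's SE and colours the calls. CYP71B23 lies at the lower right, CYP71B35 and CYP71B5 at the upper left, and the 12 genes called in neither photoperiod (grey) lie near the centre.

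CYP71B36, CYP71B6 and CYP71B22 were higher in cs26 in long days and were not called in short days. CYP71B36 (AT3G26320) read 4.69, 4.54 and 4.93 in long-day wild type and 6.70, 6.05 and 6.68 in long-day cs26, a rise of 1.76 ± 0.211 (adjusted p = 4.35e-05). In short days wild type (5.57, 5.91 and 5.89) and cs26 (6.18, 5.40 and 5.98) overlapped, with a difference of 0.06 ± 0.211 (adjusted p = 0.888). Long-day wild type thus stood apart as the lowest of the 4 groups. The difference of effects was -1.69 ± 0.299 (adjusted p = 9.89e-04).

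CYP71B6 (AT2G24180) is the gene of the indole-3-acetonitrile enzyme. Its long-day values were 8.83, 9.11 and 8.78 in wild type and 9.58, 9.40 and 9.68 in cs26, a rise of 1.57-fold (0.65 ± 0.108, adjusted p = 6.36e-04). In short days the genotypes overlapped, with 8.97, 9.18 and 9.16 in wild type and 8.99, 8.97 and 9.12 in cs26. The short-day difference was -0.08 ± 0.108 (adjusted p = 0.712), and the difference of effects was -0.72 ± 0.153 (adjusted p = 0.00344).

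CYP71B22 (AT3G26200) rose 1.44-fold in long-day cs26, from 6.70, 6.67 and 6.87 to 7.35, 7.30 and 7.16 (0.52 ± 0.0915, adjusted p = 8.88e-04). In short days its values were 5.68, 5.53 and 5.57 in wild type and 5.36, 5.40 and 5.18 in cs26. These do not overlap, yet the difference of -0.28 ± 0.0915 missed the threshold (adjusted p = 0.0554). It also missed the threshold in 12 of 13 alternatives (adjusted p up to 0.187). It passed only when the arrays were quantile-normalised again (-0.30, adjusted p = 0.0358). The effects differed by -0.80 ± 0.129 (adjusted p = 5.00e-04).

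CYP71B34, CYP78A9 and CYP71B28 were lower in long-day cs26 and were not called in short days. CYP71B34 (AT3G26300) read 7.27, 7.28 and 7.14 in long-day wild type and 6.20, 6.01 and 6.56 in cs26, a fall of 1.96-fold (-0.97 ± 0.151, adjusted p = 3.55e-04). In short days wild type read 7.19, 7.36 and 7.16 and cs26 read 7.91, 7.35 and 7.64, overlapping by a single array, replicate 2 of cs26. The short-day difference of 0.40 ± 0.151 was not called (adjusted p = 0.097), and without that array it was 0.54 and called (adjusted p = 0.0271). It stayed uncalled in 11 of 13 alternatives (adjusted p up to 0.296). The difference of effects was 1.37 ± 0.213 (adjusted p = 3.85e-04).

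CYP78A9 (AT3G61880), the growth-promoting member, fell 1.73-fold in long-day cs26 (-0.79 ± 0.172, adjusted p = 0.00428), from 6.0, 5.82 and 6.24 to 5.19, 5.24 and 5.27. In short days wild type read 5.46, 5.67 and 5.63 and cs26 read 5.80, 6.50 and 5.74. The groups did not overlap, but replicate 2 of cs26 lay far above the others, and the difference of 0.43 ± 0.172 was not called (adjusted p = 0.117). Without replicate 2 of both cs26 groups it was 0.18 (adjusted p = 0.38). The difference of effects was 1.21 ± 0.243 (adjusted p = 0.00243).

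CYP71B28 (AT1G13090) read 8.35, 8.10 and 8.17 in long-day wild type and 7.83, 7.28 and 7.59 in cs26, a fall of 1.56-fold (-0.64 ± 0.147, adjusted p = 0.00598). Its short-day values were 7.95, 8.17 and 7.92 in wild type and 8.32, 8.57 and 8.11 in cs26, which overlap (0.32 ± 0.147, adjusted p = 0.173). The effects differed by 0.96 ± 0.208 (adjusted p = 0.00405).

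CYP71B26 and CYP71B24 were called in short days alone. CYP71B26 (AT3G26290) was 1.79-fold higher in short-day cs26 (0.84 ± 0.182, adjusted p = 0.00713), with 9.95, 9.56 and 9.68 in wild type against 10.67, 10.32 and 10.73 in cs26. In long days wild type (6.40, 6.20 and 6.51) and cs26 (6.64, 6.06 and 6.82) overlapped, with a difference of 0.14 ± 0.182 (adjusted p = 0.704). The difference of effects, 0.71, was not called (adjusted p = 0.0607, with 0.0104 as the lowest and 0.134 as the highest among the alternatives), so an effect particular to short days was not shown for this gene.

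CYP71B24 (AT3G26230) read 8.65, 8.74 and 8.49 in short-day wild type and 7.90, 7.41 and 7.89 in cs26, a fall of 1.86-fold (-0.89 ± 0.175, adjusted p = 0.00392). Its long-day values were 7.58, 7.40 and 7.58 in wild type and 7.67, 7.03 and 7.69 in cs26, which overlap (-0.06 ± 0.175, adjusted p = 0.895). Short-day wild type was thus the 1 group above the other 3. The effects differed by -0.84 ± 0.247 (adjusted p = 0.0236), a call that was lost without any 1 of 5 arrays (adjusted p from 0.0509 to 0.0634).

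Over all 23 genes the difference of effects was called for 10 (43.5%, against 27.6% of all probe sets), with 5 positive (14.8% of all probe sets) and 5 negative (12.7% of all probe sets), as short-day minus long-day effect. This contrast uses the same arrays as the comparisons within each photoperiod, so it is no separate evidence for them. The 5 positive ones were CYP71B34, CYP71B35, CYP78A9, CYP71B5 and CYP71B28. The 5 negative ones were CYP71B23, CYP71B36, CYP71B24, CYP71B22 and CYP71B6.

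Neighbouring CYP71B genes did not all move in the same direction. By the order of genes in the TAIR10.1 gene table, 11 of the 23 genes lie in a row of 25 consecutive genes on chromosome 3, from CYP71B16 to CYP71B37, of which 18 carry CYP71B symbols. In this row 3 genes were higher and 2 lower in long-day cs26 (45.5% called, against 24.6% of all probe sets), and 2 were higher and 2 lower in short-day cs26 (36.4%, against 16.7%). CYP71B34, CYP71B35 and CYP71B36 follow each other directly, and in long days the first 2 fell while the third rose. CYP71B22 and CYP71B23, also direct neighbours, both rose in long days. The 4 dim genes of the row (CYP71B16, CYP71B21, CYP71B25 and CYP71B37) were called in neither photoperiod. CYP71B27, CYP71B28 and CYP71B29 lie within 5 consecutive genes on chromosome 1, and of these CYP71B28 alone was called between the genotypes. CYP71B5, CYP71B30P and CYP71B31 lie within 5 genes on chromosome 3, and of these CYP71B5 alone was called between the genotypes. CYP71B27, CYP71B30P and CYP71B31 are dim genes too, so an absence of change is not shown for them. Neighbours of this kind can be similar in sequence, and how far their probes bind each other's transcripts was not tested.

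**Figure D3:**
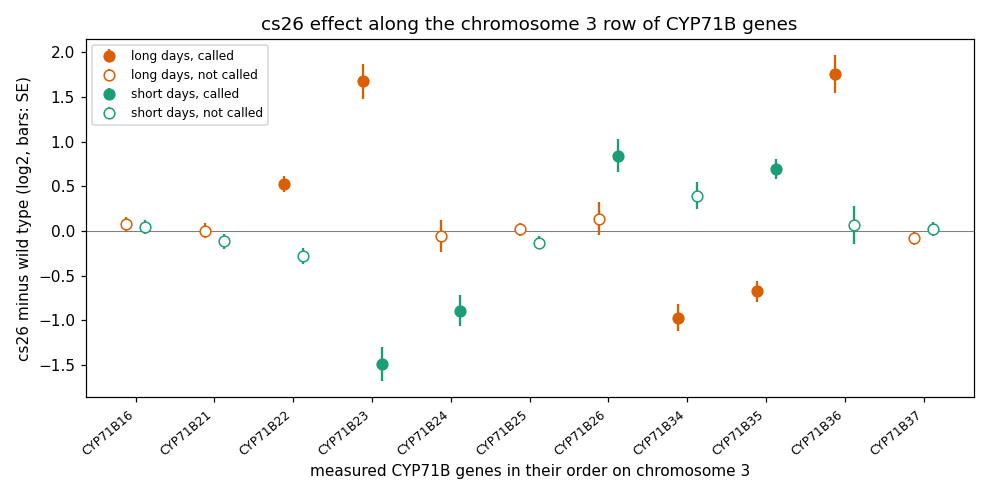
The 11 measured CYP71B genes of the chromosome 3 row in their order (horizontal axis), with the cs26 minus wild-type difference (vertical axis, log2, bars showing SE) in long days (orange) and short days (green); filled points were called at an adjusted p under 0.05. CYP71B34 and CYP71B35 lie below 0 in long days and CYP71B36, the next gene, at 1.76.

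In wild type alone, CYP71B26 and CYP71B23 were much higher in 5-week-old short-day leaves than in 3-week-old long-day leaves. CYP71B26 was higher by 3.36 ± 0.182 (10.3-fold, adjusted p = 1.41e-08), the largest photoperiod difference among the 23 genes, and CYP71B23 by 2.33 ± 0.191 (5.02-fold). CYP71B24 (1.11), CYP71B36 (1.07), CYP71B35 (0.41) and the pseudogene CYP51G2 (0.31) were also higher. CYP71B22 fell by 1.15 ± 0.0915 (2.22-fold) and CYP71B5 by 1.0 ± 0.111 (2.0-fold), and CYP71B29 (-0.39) and CYP71B31 (-0.30) were lower too. These 6 higher and 4 lower genes make 43.5% called, against 44.8% of all probe sets (21.8% higher and 23% lower). The groups did not overlap for 14 genes (60.9%, against 55.1%), and the median over the 23 genes was -0.07 (all probe sets -0.01). The call of CYP71B29 was lost without replicate 3 of long-day or replicate 2 of short-day wild type (adjusted p = 0.0601 and 0.0605). That of CYP71B35 was lost without replicate 1 of long-day wild type (adjusted p = 0.0548). That of CYP71B31 was lost without any 1 of 4 wild-type arrays (adjusted p from 0.0609 to 0.156). It was also lost when only the groups compared were fitted (adjusted p = 0.0722 in limma). The call of CYP51G2 was lost without replicate 1 of short-day wild type (adjusted p = 0.0764). Both CYP71B31 and CYP51G2 are dim genes, below the median of probe set means.

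The comparison in wild type shares its arrays with the comparisons above, so the values are given side by side and no relation between them is tested. CYP71B23 was 2.33 higher in short days in wild type and 1.67 higher in long-day cs26. CYP71B36 was 1.07 higher in short days and 1.76 higher in long-day cs26. For CYP71B5 the figures were -1.0 and -0.53. CYP71B22 had opposite signs, -1.15 with photoperiod and 0.52 with genotype in long days, and so had CYP71B35, at 0.41 and -0.68, the former a call that 1 array decided. CYP71B26 differed most by photoperiod and had 0.14 by genotype in long days.

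**Figure D4:**
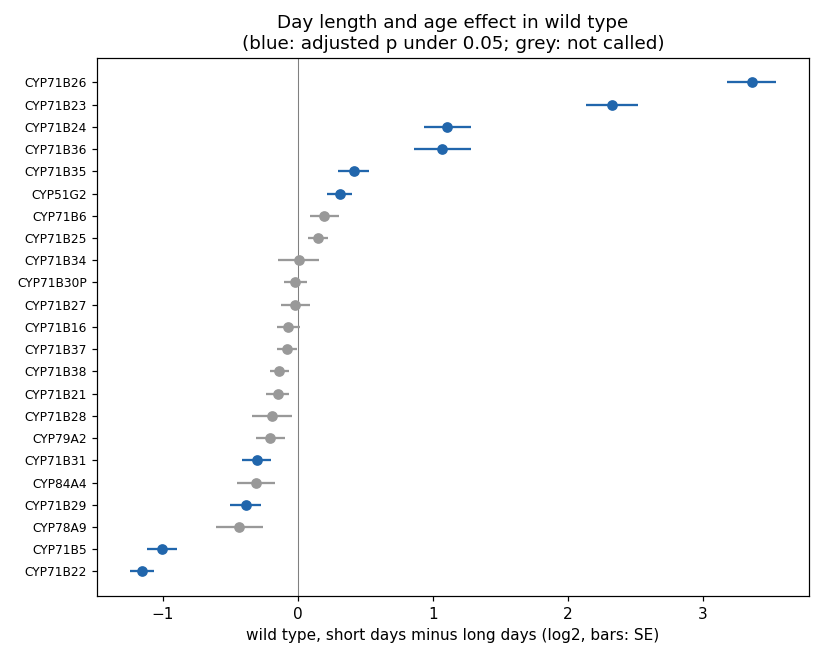
Difference between short-day and long-day wild-type leaves (horizontal axis, log2, bars showing SE) for the 23 P450 genes (vertical axis, ordered by size), with blue points for an adjusted p under 0.05 and grey points for the rest. CYP71B26 stands at 3.36 and CYP71B23 at 2.33, whereas CYP71B22 and CYP71B5 lie at -1.15 and -1.0.

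The other 12 genes were called between the genotypes in neither photoperiod. CYP84A4 and CYP71B29 were the only ones of these among the brighter 13. CYP84A4 (AT5G04330) read 5.72, 5.70 and 5.59 in long-day wild type and 5.57, 6.33 and 5.97 in cs26, where the mutant arrays were spread widely. The difference of 0.29 ± 0.143 was not called (adjusted p = 0.191 in limma). It stayed uncalled in 12 of 13 alternatives (adjusted p up to 0.675), including the 0.01 threshold, which could not give a call. Without replicate 1 of cs26 it was 0.48 and called (adjusted p = 0.00632). In short days CYP84A4 differed by -0.06 (adjusted p = 0.85). CYP71B29 (AT1G13100) had a long-day difference of -0.02 and a short-day difference of 0.14, within the spread of its arrays.

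The 10 dim genes had long-day differences from -0.12 to 0.11 and short-day differences from -0.21 to 0.09. CYP79A2 (AT5G05260) ranged from 4.10 to 4.64 over the 12 arrays and had a long-day difference of 0.11 (adjusted p = 0.585) and a short-day difference of -0.04 (adjusted p = 0.852). CYP71B31 (AT3G53300), the linalool oxidase of flowers, ranged from 3.64 to 4.24 and differed by -0.12 and 0.05. In limma 0 of the 10 were called in either photoperiod, and an unadjusted p under 0.05 was found for 0 in long days and 1 in short days. Of all probe sets below the same line, 9% were called in long days and 5.86% in short days, so a count of 0 among 10 is near that background. The line uses the mean over the 12 arrays, so a gene raised in 1 group can cross it, as CYP71B36 did. Such low values may lie at the background, so an absence of change in these transcripts is not shown.

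Few partner genes of the P450 pathways could be read. Of the loci listed for electron donors (8), brassinosteroids (11), abscisic acid (13) and cuticle and suberin (15), 0 had a probe set naming them alone. Of 20 listed tryptophan, indole glucosinolate and camalexin partners, 2 were measured. AT2G04400, indole-3-glycerol phosphate synthase of tryptophan synthesis, rose by 1.09 ± 0.137 in long-day cs26 (adjusted p = 6.46e-05). In short days it measured -0.18 (adjusted p = 0.427). The other, the glucosyltransferase gene UGT74B1, measured -0.18 and 0.21 and was called in neither. Of 20 aliphatic glucosinolate partners, 3 were measured, with 2 lower in long days (AT2G31790 at -0.44 and BCAT4 at -0.31) and 2 lower in short days (BCAT4 at -0.44 and the glutathione transferase gene GSTU20 at -0.38).

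For phenylpropanoids and flavonoids 2 of 19 listed partners were measured. DFR, dihydroflavonol reductase of anthocyanin synthesis, fell by 2.13 ± 0.185 in long-day cs26 and HCT was not called in either photoperiod. Of 11 carotenoid partners 3 were measured: AT1G57770 rose in long days (0.89) and in short days (1.07), and the lycopene cyclase gene LYC rose in short days (0.35). Of 12 detoxification genes 3 were measured and AER, an alkenal reductase, fell in long days by 0.47. The defensin gene PDF1.2, the 1 measured of 16 jasmonate genes, rose by 2.88 and 3.58, and the gibberellin receptor gene GID1A, the 1 measured of 12, was called in neither photoperiod. These lists are too thinly covered to describe a pathway.

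Markers of other leaf cell types were covered by 1 gene each. The trichome repressor gene TRY fell by 0.48 in long-day cs26 (adjusted p = 0.0392 in limma). It rose by 0.97 in short-day cs26 (adjusted p = 0.00101). CYP71B35 and CYP71B5 had the same signs as TRY, whereas CYP71B23 had the opposite ones (1.67 and -1.49). Of all probe sets, 568 (2.5%) were called with the signs of TRY. The guard cell gene FMA, the vascular gene SWEET11 and the dividing-cell gene AUR1 were not called between the genotypes, with differences from -0.06 to 0.38 in long days and from -0.16 to 0.22 in short days. Between the photoperiods in wild type the markers did differ: FMA measured -0.81 (adjusted p = 1.15e-04) and SWEET11 -1.09 (adjusted p = 8.60e-08), TRY was higher by 0.79 (adjusted p = 0.00109), and AUR1 measured 0.24 (adjusted p = 0.154). The part of cell type composition in the P450 results, by genotype or by photoperiod, was not tested.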

How the data were processed

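Affymetrix ATH1 arrays were hybridised with cRNA made from 4 µg of leaf total RNA, 12 arrays in 4 groups of 3. The deposited values are log2 probe set values with 2 decimals, from 3.12 to 14.27, made by the authors with RMA and the affy package, per the submitters' processing notes. Tool versions were not given in the sources used here. RMA makes the distributions of the arrays alike (medians 5.42 to 5.52), so a shift shared by most transcripts is removed. The table holds 22810 probe sets, and 64 control probe sets were left out. Names came from the platform annotation, where 13513 probe sets name 1 gene, and were brought up to date through Entrez numbers and the gene table of TAIR10.1 (13436 found). That table served only for names, gene type and gene order.

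Groups came from the titles. limma 3.58.1 (lmFit, eBayes) in R 4.3.3 fitted a mean per group over all 12 arrays (8 residual and 4.32 prior degrees of freedom), was tested on simulated data, and gave 4 contrasts with Benjamini-Hochberg adjustment over 22746 probe sets. A gene is called at an adjusted p under 0.05. Errors of differences are the model's SE, and the number of arrays limits precision. The P450 genes and partner lists were chosen with earlier results of these data known. Named genes were, by rule, up to 15 rises and 10 falls per genotype comparison among called genes without overlap, up to 12 differences of effects, up to 6 of each in wild type, and members with a known role (4 of 82 listed were measured). Partner lists name up to 3 called genes each, and genes of these lists not called were named after their values were seen. Alternatives were another quantile normalisation, leaving out dim probe sets, a trended robust prior, only the groups compared, the replicate number as a block, a threshold of 0.01 and leaving out arrays. Sequences are not used here.

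Pairing by the replicate numbers in the labels was checked with correlations, over probe sets, of the deviations from group means. Same-numbered wild-type and cs26 arrays gave -0.036 to 0.08 in long days and -0.31 to 0.162 in short days. Pairs with different numbers gave -0.199 to 0.203 in long days and -0.355 to 0.421 in short days. Same-numbered long-day and short-day arrays gave -0.162 to 0.048 in wild type and -0.219 to 0.056 in cs26. Those with different numbers gave -0.093 to 0.15 in wild type and -0.094 to 0.21 in cs26. Neither check thus paired the arrays by their numbers.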

Additional observations from a re-analysis of the deposited data

Results flagged for a closer look

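By limma's test of the difference, the effect of cs26 differed between short and long days for 10 P450 genes (43.5%, against 27.6% of all probe sets). Values are the short-day minus long-day effect on the log2 scale. The effect was lower in short days for CYP71B23 (-3.16), CYP71B36 (-1.69), CYP71B24 (-0.84), CYP71B22 (-0.80) and CYP71B6 (-0.72). It was higher in short days for CYP71B34 (1.37), CYP71B35 (1.37), CYP78A9 (1.21), CYP71B5 (1.06) and CYP71B28 (0.96). The call of CYP71B24 was lost in 6 of 18 alternatives (adjusted p up to 0.0634 in limma). CYP71B23, CYP71B35 and CYP71B5 were called in both photoperiods with opposite signs, as were 6.79% of all probe sets. For these genes the genotypes did not overlap in either photoperiod. The same held for CYP71B22 and CYP78A9, whose effects also changed sign but were called in long days alone. Together these are 5 genes without overlap in either photoperiod (21.7%, against 15.5% of all probe sets).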

How the results depend on the processing

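The counts of P450 genes called in long days ranged from 4 to 5 higher and stayed at 5 lower when single arrays were left out, and in short days from 3 to 4 higher and at 2 lower. For the difference of effects they ranged from 5 to 6 higher and from 4 to 5 lower. In wild type by photoperiod, 5 to 7 were higher and 2 to 5 lower. At an adjusted p under 0.01, 2 were lower in place of 4. The higher genes CYP71B35 and CYP51G2 also missed that threshold (adjusted p = 0.0111 and 0.0164 in limma). The 2 lower without replicate 3 of long-day or replicate 2 of short-day wild type were fewer because CYP71B29 and CYP71B31 missed the threshold there. Without replicate 2 of both cs26 groups, an alternative chosen after seeing the data, 4 were higher and 5 lower in long days and 4 and 2 in short days. With the replicate number as a block, no call between the genotypes changed, and the difference of effects of CYP71B26 (0.71) was called (adjusted p = 0.0104). No called value changed its sign under any setting tried. Each gene has 1 probe set, so the alternative choice of the dimmest probe set was not run. Dim probe sets limit what can be seen for 10 of the 23 genes.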
